A study of Drosophila melanogaster with 11 samples.

Results

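Chronic dietary nicotine was compared with plain food in the heads of adult female Drosophila melanogaster. The comparison used 6 of the 11 arrays of the series, chosen by their labels as the arrays of flies that never received paraquat. The nicotine group (n = 3 arrays) was fed nicotine, at 0.1 mg per ml of food, over 16 days, and the control group (n = 3) ate plain food for the same time. All flies carried w1118, a mutation of the white eye pigment transporter gene, and entered the vials within a day of emerging as adults, with no other allele or agent in either group. Each array was hybridised with RNA pooled from 20 heads, so differences between single flies were averaged within an array. The other 5 arrays came from flies that had 5 mM paraquat, a herbicide that generates superoxide, during the last 6 days, with the same nicotine dose throughout (n = 3) or without nicotine (n = 2). They served to estimate the spread and to set the same nicotine contrast beside this one. The labels call the replicates biological. Of 18952 probe sets, 9104 were kept, namely those that are no Affymetrix control and lie at log2 4 or above on at least 2 of the 11 arrays, and all values are log2 signals.

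Nicotine is an alkaloid made by tobacco plants as a defence against insects. It opens nicotinic acetylcholine receptors, ion channels built from several subunits that carry most fast excitation in the insect brain, where acetylcholine is the main excitatory transmitter. Insects clear nicotine with cytochrome P450s, UDP-glycosyltransferases and efflux transporters, and neurons that fire strongly switch on a small set of activity-regulated transcription factors. The head holds brain and eye, but also fat body, antennae, muscle and cuticle. In pooled heads, fewer cells of a type and less RNA per cell cannot be told apart.

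The tissue label matched the defining markers. The arrestin gene Arr2, which shuts off rhodopsin in photoreceptors, averaged 15.76 in nicotine heads and 15.82 in control heads. The neuronal gene elav averaged 11.56 on nicotine and 11.74 on plain food, the glial gene repo 11.64 in both groups, and the fat body yolk protein gene Yp1 15.92 on nicotine and 15.91 on plain food. Other markers were less level. Lower on nicotine were 5 of 5 photoreceptor markers (median -0.08, lowest -0.35) and 4 of 5 neuronal markers (median -0.18, lowest -0.62). So were 4 of 5 head fat body markers (median -0.11) and 1 of 4 glial markers (median 0.07, lowest -0.62). Of these markers 0 were called, and the arrays of all overlapped. Of 9 eggshell markers, 0 passed the low-value filter, and 2 of 8 male markers did. Transcripts of digestive enzymes differed widely between arrays within each group. The median of the 5 measured midgut markers was 10.38, 3.07 and 10.55 in the nicotine arrays and between 6.47 and 10.52 in the control arrays. Control replicate 3 stood apart from the other arrays, with a mean correlation of 0.957 with the remaining 5, against 0.964 to 0.976 for those. It was the highest or the lowest of the 6 arrays for 5214 of 9104 probe sets. The mean difference between 3′ and 5′ probe sets, over 19 pairs of the array's control transcripts, was 4.96, 4.86 and 5.06 in the nicotine arrays. It was 4.85, 4.75 and 4.39 in the control arrays, and the groups did not overlap. These pairs are not only fly mRNAs, so the value is not a measure of the length of the sample RNA alone. Over the 3 fly mRNAs among these controls, a choice made after the first values were seen, it was 8.78, 8.76 and 10.12 in the nicotine arrays and 9.43, 8.34 and 5.87 in the control arrays, which overlapped, with control replicate 3 lowest. A fit with either measure as a covariate called 0 probe sets.

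No probe set passed the test for a difference between nicotine and plain food. In limma with Benjamini-Hochberg adjustment over the 9104 probe sets, 0 were called (0%), the smallest adjusted p was 1, and 179 (1.97%) had an unadjusted p below 0.05. Weighting the arrays by their estimated reliability ended this result: 20 probe sets were then called, 12 higher and 8 lower on nicotine. Among the 6 arrays compared, the estimated weights ran from 5.82 for nicotine replicate 1 and 5.78 for control replicate 2 to 0.281 for control replicate 3. Without nicotine replicate 2, 2 probe sets were called, those of CG18563 and CtsL3, which were named after their values were seen.

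The differences were centred near 0. The median was -0.01 log2, and 95% of the probe sets lay between -0.69 and 0.67. A difference of at least 2-fold was seen for 164 probe sets, 78 higher and 86 lower on nicotine, but the arrays of the groups overlapped for 121 of them. In all, the 3 nicotine arrays lay above the 3 control arrays for 314 probe sets (3.45%) and below them for 217 (2.38%), together 531 (5.83%). The median 95% interval reached 0.59 log2 to either side of the estimate. For 6147 probe sets (67.5%) the whole interval lay within a 2-fold change in either direction. For the rest, the interval reached past a 2-fold change in at least 1 direction.

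**Figure D1:**
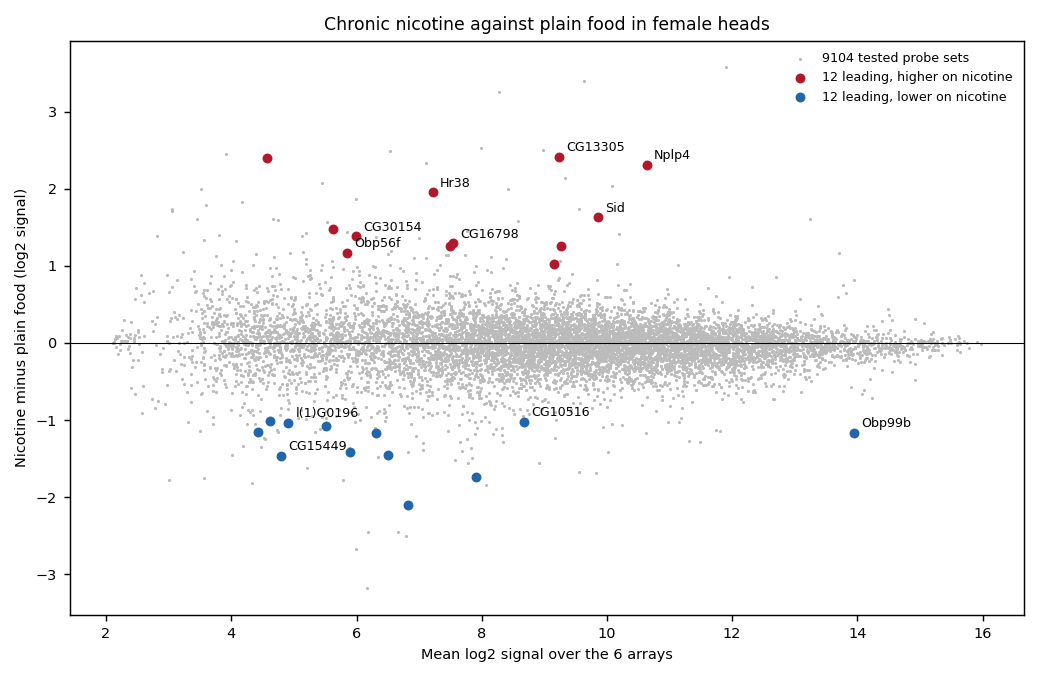
Difference between nicotine and plain food (log2 signal, y axis) against the mean log2 signal over the 6 arrays (x axis) for 9104 probe sets in grey, with the 12 leading genes higher on nicotine in red and the 12 lower in blue. The grey cloud is centred near 0, and several points farther out than the leading genes have overlapping arrays.

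The largest estimates of all came from genes whose arrays overlapped. CG14125, picked here for its size after the values were seen, had 14.35, 12.48 and 14.24 in the nicotine arrays and 11.42, 4.03 and 14.87 in the control arrays. The difference of 3.58 ± 2.24 (standard error, as for every error below unless SD is written) came from the low second control array, while the third control array was the highest of all 6. CG13324, also picked after its values were seen, had the same order of arrays, with 11.97, 10.34 and 11.71 on nicotine and 8.81, 2.89 and 12.12 on plain food. The genes described next were therefore taken by their p-value among those with no overlap, all 3 arrays of the higher group at log2 4 or above, and a difference of at least 2-fold. There were 17 such genes higher on nicotine and 18 lower, and the first 12 in each direction are called leading here. None of them passed the test in the unweighted fit.

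The 12 leading genes higher on nicotine differed by 1.02 to 2.41 log2, or 2.03-fold to 5.33-fold, with unadjusted p from 0.0018 to 0.0367. They included a neuronal activity-regulated nuclear receptor, a neuropeptide-like precursor, a polyamine enzyme and a drug efflux pump. CG13305, a gene known by number only, had 10.79, 10.61 and 9.92 on nicotine and 9.43, 7.27 and 7.38 on plain food. All 3 nicotine arrays lay above the highest control array, and the difference was 2.41 ± 0.56 (5.33-fold). Nplp4, which encodes a neuropeptide-like precursor, had 12.33, 10.83 and 12.21 on nicotine and 10.79, 9.38 and 8.26 on plain food. The groups were separated by a narrow gap between nicotine replicate 2 and control replicate 1, and the difference was 2.31 ± 0.67 (4.97-fold). Sid, which encodes a stress-induced DNase, had 10.62, 11.03 and 10.36 on nicotine and 9.79, 9.38 and 7.96 on plain food. Control replicate 3 was the lowest array there, as it was among the control arrays for 9 of these 12 genes. Sid differed by 1.63 ± 0.42.

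Odc2, an ornithine decarboxylase that starts polyamine synthesis, had 8.17, 8.32 and 7.88 on nicotine and 6.60, 7.44 and 6.55 on plain food. The nicotine arrays lay close together and above every control array, with a difference of 1.26 ± 0.39 (2.39-fold). Mdr50, an ABC transporter of the P-glycoprotein type, had 6.42, 7.14 and 5.56 on nicotine and 4.94, 5.16 and 4.57 on plain food. The difference of 1.48 ± 0.50 (2.80-fold) lay above the spread of the control arrays, while the nicotine arrays ranged more widely. The odorant-binding protein gene Obp56f had 6.47, 6.24 and 6.61 on nicotine and 5.68, 5.36 and 4.76 on plain food, a difference of 1.17 ± 0.28. CG30154 (1.39 ± 0.38), CG16798 (1.29 ± 0.38), CG34265 (1.02 ± 0.36), CG14642 (2.40 ± 0.74) and CG9018 (1.26 ± 0.52) completed the group besides Hr38. CG14642 and CG9018 had further probe sets that showed smaller differences: 0.24 for the other probe set of CG14642, and 0.05 and 0.02 for the other probe sets of CG9018.

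The 12 leading genes lower on nicotine differed by -1.01 to -2.10 log2, or 2.01-fold to 4.28-fold, with unadjusted p from 0.00036 to 0.0631. Among the control arrays, replicate 3 was the highest for 7 of these 12 genes. Obp99b, an abundant odorant-binding protein gene, had the smallest p of all probe sets. It had 13.46, 13.24 and 13.42 on nicotine and 14.14, 14.57 and 14.89 on plain food. The nicotine arrays lay within a narrow range well below the lowest control array, and the difference was -1.16 ± 0.22 (2.24-fold lower). CG15449, known by number only, had 3.58, 4.42 and 4.20 on nicotine, near the low-value limit, and 5.09, 5.92 and 5.57 on plain food. The difference was -1.46 ± 0.31. CG10516 had 7.89, 8.61 and 7.98 on nicotine and 8.67, 9.70 and 9.17 on plain food, and only a narrow gap separated the groups.

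Other genes of this direction had 1 array that set much of the difference. alpha-Man-Ia, a mannosidase that trims N-glycans in the secretory pathway, had 6.35, 6.73 and 4.24 on nicotine and 6.95, 7.49 and 7.25 on plain food. CG30098 had 7.82, 5.22 and 8.06 on nicotine and 8.86, 8.78 and 8.67 on plain food. CG5412 had 4.20, 4.18 and 3.97 on nicotine and 4.43, 4.66 and 6.29 on plain food, so that control replicate 3 alone lay far off. Ndae1, a sodium-driven anion exchanger, differed by -1.17 ± 0.44, and its other probe set by -0.36. For l(1)G0196 the leading probe set differed by -1.03 ± 0.36, and its other 4 probe sets by -0.36 to 0.21. CG11741 (-2.10 ± 0.93), CG17490 (-1.15 ± 0.52), CG5800 (-1.07 ± 0.50) and CG31988 (-1.42 ± 0.67) had the largest errors relative to their differences. The leading probe set of CG17490 lay near the low-value limit, with 4.47, 4.56 and 2.51 on nicotine and 4.91, 4.62 and 5.47 on plain food. The other probe set of CG17490 differed by -0.44, with overlapping arrays.

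**Figure D2:**
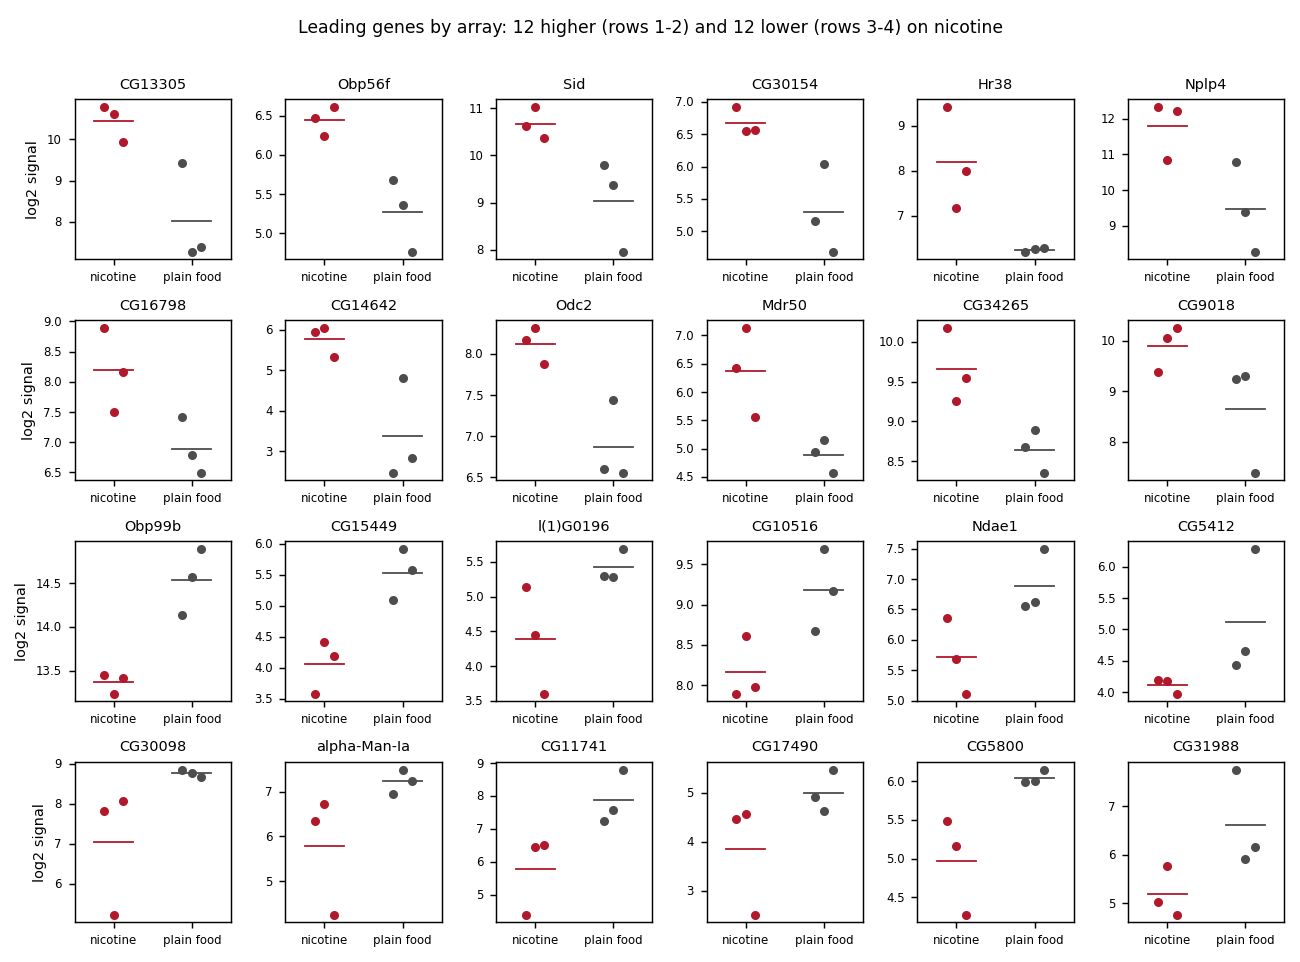
Log2 signal (y axis, own scale per panel) of the 24 leading genes on each nicotine array (red, left) and each plain food array (grey, right), with group means as lines. Groups do not overlap in any panel, which the selection required, and in several panels 1 array lies far from the other arrays of its group.

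Among activity-regulated transcription factors, Hr38 differed most, and 0 were called. Of 9 listed, 5 were tested and 5 had a difference above 0, 2 of them without overlap of the arrays. Over the 7316 genes tested with 1 probe set each, 49.0% had a difference above 0, 3.81% lay above the controls without overlap and 2.28% below, and these shares stand beside the counts of every list below. The list median was 0.18, against -0.01 over all these genes, and the median level over the list was lower on nicotine replicate 3 (8.93) than on control replicate 3 (9.12). Hr38, the fly member of the NR4A nuclear receptors and a marker of recent neuronal firing, is measured by 2 probe sets. The first had 11.12, 11.17 and 8.93 on nicotine and 7.98, 8.37 and 8.44 on plain food, a difference of 2.14 ± 0.60 (4.41-fold). The second had 9.43, 7.16 and 7.99 on nicotine and 6.19, 6.25 and 6.28 on plain food, a difference of 1.95 ± 0.54 (3.88-fold). The control arrays lay close together on both, and the nicotine arrays were spread, with the lowest one near the controls on the first probe set. The other gene without overlap was sr, an Egr-type zinc finger gene, with 8.50, 8.48 and 8.30 on nicotine and 8.22, 7.93 and 7.34 on plain food, a difference of 0.60 ± 0.32. The Fos gene kay differed by 0.09 ± 0.16 and Atf3 by 0.18 ± 0.25.

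The receptors that nicotine binds showed no difference beyond the spread. Of 10 nicotinic receptor subunit genes, 9 were named on the array and 7 were tested, and 0 were called or free of overlap. Their median difference was 0.00, 4 were higher and 3 lower, and the intervals of 6 lay within a 2-fold change. The widely used subunit gene nAChRbeta1 had 13.78, 13.72 and 13.48 on nicotine and 13.74, 13.64 and 13.21 on plain food. The groups overlapped, with a difference of 0.13 and a 95% interval of -0.33 to 0.59. nAChRalpha2 differed by 0.32 (-0.23 to 0.86), nAChRalpha3 by 0.10 (-0.31 to 0.51) and nAChRalpha4 by -0.05 (-0.79 to 0.68). nAChRbeta2 differed by 0.00 (-0.78 to 0.78) and nAChRbeta3 by 0.00 (-0.62 to 0.61). The interval of nAChRalpha7 reached past a 2-fold change, with a difference of -0.63 (-1.61 to 0.35). It had 8.44, 7.74 and 6.63 on nicotine and 8.29, 8.23 and 8.18 on plain food, so the nicotine arrays ranged on both sides of the controls. Of 6 tested genes of acetylcholine handling, 0 were called or free of overlap, and the intervals of 5 lay within a 2-fold change. The differences ran from -0.25 for qvr, a regulator of receptor and channel surface levels, to 0.34 (-0.45 to 1.13) for the muscarinic receptor gene mAChR-B.

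**Figure D3:**
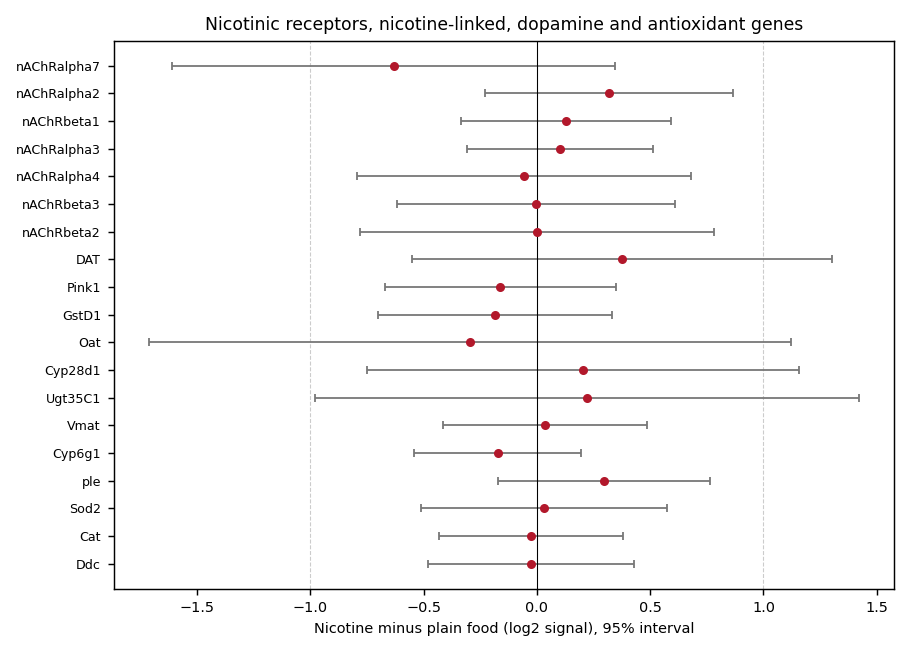
Difference between nicotine and plain food (log2 signal, x axis) with its 95% interval for the measured nicotinic receptor subunits, genes tied to nicotine survival, and dopamine and antioxidant genes (y axis). Every interval crosses 0, and dashed lines mark a 2-fold change.

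Dopamine genes, which bear on the Parkinson's disease setting of the study, were not called. Of 11 tested genes of monoamine synthesis and transport, 6 were higher, 0 lay apart from the controls, and the median was 0.01. Tyrosine hydroxylase, ple, the first enzyme of dopamine synthesis, had 9.15, 9.32 and 8.80 on nicotine and 9.15, 8.76 and 8.47 on plain food. The groups overlapped, and the difference was 0.30 (-0.17 to 0.77). Dopa decarboxylase, Ddc, differed by -0.03 (-0.48 to 0.43), the vesicular transporter Vmat by 0.03 (-0.42 to 0.49) and the dopamine transporter DAT by 0.38 (-0.55 to 1.30). The ebony gene e, which conjugates dopamine in glia and cuticle, had 9.80, 10.21 and 12.01 on nicotine and 10.13, 9.31 and 9.53 on plain food, and only nicotine replicate 3 was high. All 6 tested Parkinson disease orthologues were lower, by 0.23 log2 at most, with 0 called and no separation of the groups. Pink1, a mitochondrial quality control kinase, differed by -0.16 (-0.67 to 0.35).

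Other neuronal and eye genes were centred slightly below 0. Of 16 pan-neuronal genes, 2 were higher (median -0.16), and of 19 phototransduction genes 2 were higher (median -0.07), with 0 called and 0 separated in either list. The per-array medians of the neuronal list lay between 11.63 and 11.88 on nicotine and between 11.95 and 12.22 on plain food, and the highest was that of control replicate 3. Of 25 neuropeptide genes, 6 were higher and the median was -0.04. The arrays of 2 lay above and of 1 below the controls without overlap. The one below was CCHa2, a peptide hormone gene named after its values were seen, at -0.25 ± 0.33. Besides Nplp4, the diuretic hormone gene Dh44 lay above, with 8.46 ± 0.35 on nicotine and 7.80 ± 0.26 on plain food (SD, n = 3 each), a difference of 0.65 ± 0.27.

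Detoxification genes showed no shared direction. Of 60 cytochrome P450 genes tested, 32 were higher, 4 lay above and 1 below the controls without overlap (3.81% and 2.28% of all genes), 0 were called, and the median was 0.01. Cyp6a8 had 9.21, 9.56 and 10.19 on nicotine and 8.82, 8.97 and 8.64 on plain food, a difference of 0.84 ± 0.28. Cyp4ac3 had 9.69, 9.62 and 9.03 on nicotine and 8.61, 8.96 and 8.71 on plain food, a difference of 0.69 ± 0.27. For both, every nicotine array exceeded every control array. Of 30 glutathione S-transferase genes, 17 were higher and the median was 0.05, and GstT2 was the clearest in the other direction. It had 5.77, 6.01 and 5.68 on nicotine and 6.26, 6.28 and 6.76 on plain food, a difference of -0.62 ± 0.19. Of 16 UDP-glycosyltransferase genes, 9 were higher and the median was 0.00, with Ugt301D1 at -0.97 ± 0.36 and Ugt35A1 at 0.51 ± 0.27.

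Genes that earlier fly work tied to survival on nicotine were not called. Of 5 listed, 4 were tested, and the interval of 1 lay within a 2-fold change. That gene was Cyp6g1, a P450 known for insecticide resistance, with 13.59, 13.74 and 13.62 on nicotine and 13.74, 13.79 and 13.94 on plain food. Of the 4 tested, it was the only 1 counted without overlap, below the controls (2.28% of all genes). It is also the 1 P450 counted below them above. The highest nicotine array (13.738) and the lowest control array (13.741) were nearly equal, and the difference was -0.17 (-0.54 to 0.20). Cyp28d1 differed by 0.20 (-0.75 to 1.16), Ugt35C1 by 0.22 (-0.98 to 1.42) and Oat by -0.29 (-1.71 to 1.12). Of 6 efflux transporters, 5 were higher (49.0% of all genes), 2 without overlap (3.81%), 0 were called, and the median was 0.17, with Mdr50 described above and Mdr49 at 0.20 ± 0.17. Among 6 regulators of the xenobiotic response the median was 0.18, and all intervals lay within a 2-fold change.

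Stress defence genes were not called. Of 14 antioxidant and glutathione genes, 5 were higher, 0 were separated, and the median was -0.03. The mitochondrial superoxide dismutase gene Sod2 differed by 0.03 (-0.51 to 0.58), the catalase gene Cat by -0.03 (-0.43 to 0.38), and GstD1 by -0.19 (-0.70 to 0.33). Of 12 heat shock and co-chaperone genes, 3 were higher, 3 lay below the controls without overlap (2.28% of all genes), 0 were called, and the median was -0.20. The lowest difference, -1.03 ± 1.01, was that of Hsp68, an inducible heat shock gene named after its values were seen, and its arrays overlapped. Stip1, a co-chaperone that links Hsp70 and Hsp90, had 11.15, 11.18 and 11.20 on nicotine and 11.58, 11.49 and 11.71 on plain food. The nicotine arrays were nearly equal and below every control array, and the difference was -0.42 ± 0.20.

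Antimicrobial peptide genes varied most among the defence lists. Of 11 tested, 7 were higher (49.0% of all genes), 2 without overlap (3.81%), 0 were called, and the median was 0.30. BomS2, a bomanin peptide gene, was separated by a small step, with 14.65, 14.66 and 14.83 on nicotine and 14.57, 14.47 and 14.18 on plain food. The antifungal peptide gene Mtk had 14.18, 13.49 and 14.45 on nicotine and 13.89, 12.25 and 11.16 on plain food, a difference of 1.61 ± 0.72. The groups overlapped at nicotine replicate 2 and control replicate 1. Drs, which encodes drosomycin, had 14.70, 13.38 and 14.78 on nicotine and 13.68, 12.94 and 12.75 on plain food, with the same overlap. The defensin gene Def lay in the other direction, at -1.12 ± 0.55. The NF-kappaB gene Rel differed by 0.51 ± 0.19 with overlapping arrays.

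Fat metabolism, cuticle and chemosensory receptor genes leaned to 1 direction, and control replicate 3 had the most extreme median of the 6 arrays in each of these lists. The lean was not particular to them. Lower on nicotine were 11 of 12 yolk protein and head fat body genes (median -0.19), 2 of them without overlap (2.28% of all genes). So were 10 of 11 glycolysis genes (-0.13), 15 of 18 muscle genes (-0.16) and 12 of 15 endoplasmic reticulum stress genes (-0.15). In each, 0 were called and control replicate 3 had the highest median. Of 20 fat and glycogen metabolism genes, 0 were higher, 0 were separated, 0 were called, and the median was -0.22. Their per-array medians were 11.96, 11.89 and 12.16 on nicotine and 11.90, 12.27 and 12.75 on plain food. Glycogen phosphorylase, Glyp, had 10.53, 11.02 and 9.84 on nicotine and 10.98, 11.07 and 12.42 on plain food, a difference of -1.03 ± 0.44. The groups overlapped, and control replicate 3 was far the highest. Of 28 cuticle genes, 24 were higher, 0 were separated, and the median was 0.24. Their per-array medians were 8.92, 8.68 and 8.93 on nicotine and 8.64, 8.03 and 7.47 on plain food. Edg91 had 9.35, 6.45 and 9.03 on nicotine and 5.92, 7.14 and 4.75 on plain food, so nicotine replicate 2 lay among the controls. Of 11 chemosensory receptor genes tested, out of 166 on the array, 8 were higher (49.0% of all genes), 3 without overlap (3.81%), 0 were called, and the median was 0.34. Some of the higher ones lay at the low-value limit. Or83c, counted as without overlap, had 4.11, 4.03 and 4.47 on nicotine and 4.02, 3.68 and 2.70 on plain food. Or46a lay below log2 4 on all 6 arrays. Ir75a, an ionotropic receptor of the antenna, had 11.04, 10.51 and 10.71 on nicotine and 10.39, 10.06 and 9.51 on plain food, a difference of 0.77 ± 0.26. Of 29 odorant-binding protein genes, 19 were higher and the median was 0.07. Obp56h had 12.24, 12.09 and 12.79 on nicotine and 11.44, 11.72 and 11.38 on plain food, a difference of 0.86 ± 0.22. Obp56f, Obp56h and Obp57e (0.63 ± 0.35) lay above the controls without overlap, and Obp99b lay below them.

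Broad cellular machinery stayed near 0. The medians were 0.02 for 59 oxidative phosphorylation genes, 0.00 for 35 cytosolic ribosome genes, 0.01 for 69 mitochondrial ribosome genes and -0.03 for 27 proteasome genes, with 0 called in each. The intervals of 51, 32, 51 and 24 of these genes lay within a 2-fold change.

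**Figure D4:**
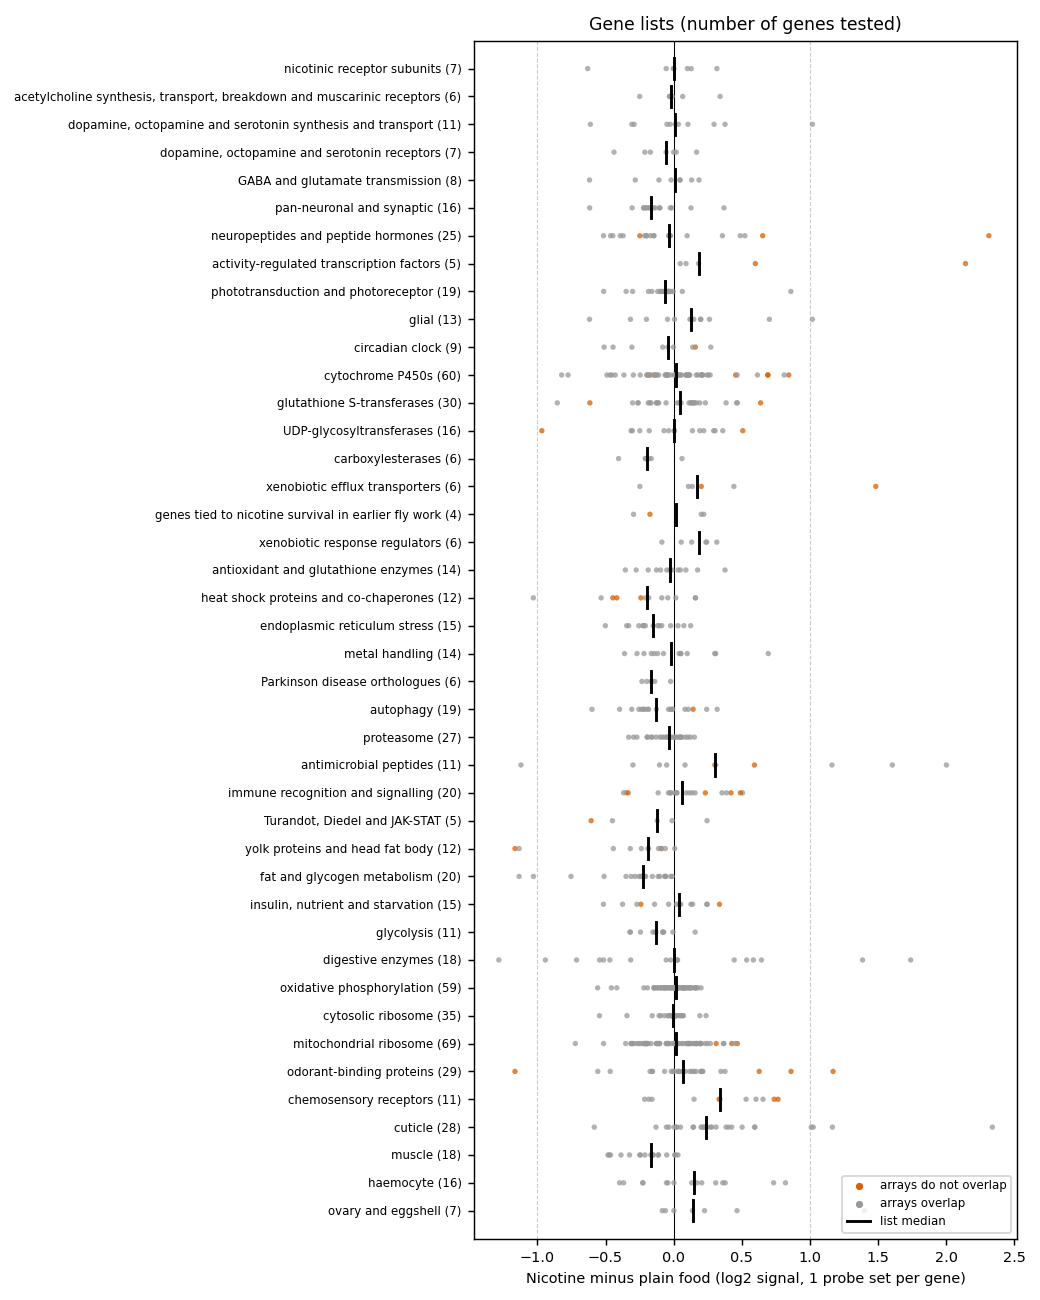
Difference between nicotine and plain food (log2 signal, x axis) of each tested member of 42 gene lists (y axis, number of genes tested in brackets), with the list median as a black bar and members whose arrays do not overlap in orange. Most medians lie near 0, and the fat and glycogen list has no member above 0.

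The same nicotine contrast in paraquat-fed flies shares no array with the one above. There, too, 0 of 9104 probe sets were called (0%), the smallest adjusted p from limma was 0.962, and 275 had an unadjusted p below 0.05. Of the 24 leading genes, 20 lay in the same direction, against 61.3% of all tested probe sets and 63.3% of those without overlap. The median difference of the 12 leading higher genes was 0.42 with paraquat and 1.43 without, and that of the 12 leading lower genes was -0.54 with paraquat and -1.17 without. The differences were smaller with paraquat for 11 of the higher and 12 of the lower genes, and the leading genes had been chosen for their size without paraquat. Odc2 differed by 1.32 ± 0.44 with paraquat and 1.26 ± 0.39 without. The Hr38 probe sets differed by 2.37 ± 0.67 and 1.39 ± 0.60 with paraquat. Obp99b differed by -0.57 ± 0.24 with paraquat, while Obp56f (-0.31 ± 0.31) and CG30154 (-0.18 ± 0.42) lay on the other side of 0. Cuticle genes had a median of 0.04 with paraquat, antimicrobial peptide genes -0.45 and fat and glycogen genes -0.09. The test of whether the nicotine difference itself depended on paraquat called 0 of 9104 probe sets (0%), with 112 at an unadjusted p below 0.05 and a smallest adjusted p of 0.9997. Across the 9104 probe sets Pearson's r between the differences was 0.256, given as a description, since probe sets share arrays and normalization.

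**Figure D5:**
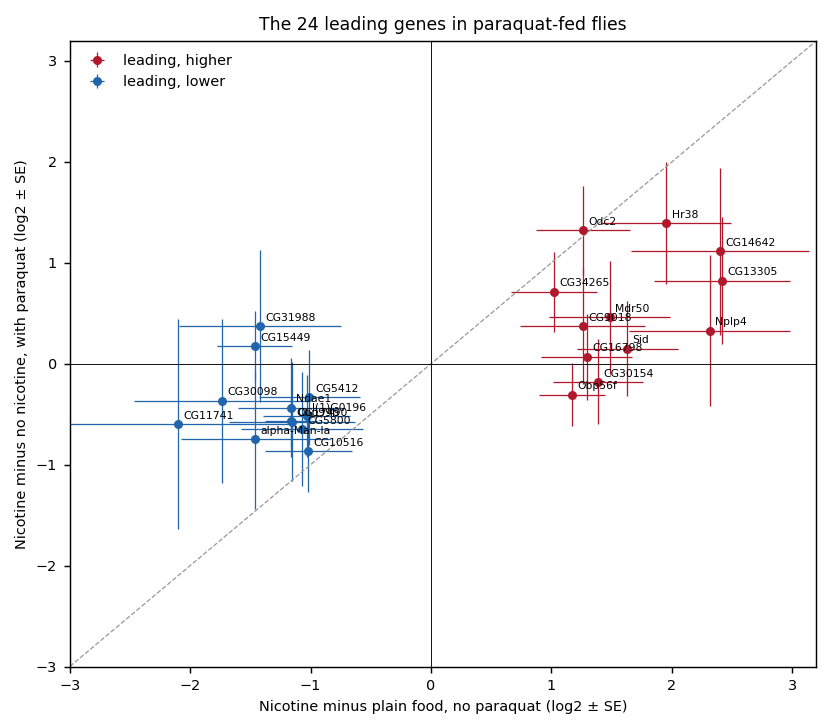
Nicotine difference of the 24 leading genes in paraquat-fed flies (y axis) against that in flies without paraquat (x axis), log2 ± standard error. The dashed line marks equal differences, and 20 genes lie in the same direction on both axes while most lie nearer to 0 on the y axis.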

How the data were processed

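Heads of female flies were measured on Affymetrix Drosophila arrays. The deposited values are log2 signals per probe set, and the submitters' processing notes name GCRMA, with version and options not given in the sources used here. They were used as deposited, and 0 pairs of arrays were identical. A fit in limma 3.58.1 (R 4.3.3) with 1 mean per group over the 11 arrays (7 residual and 2.48 prior degrees of freedom) gave two-sided moderated tests, adjusted over 9104 probe sets and called at 0.05. The fit was tested on simulated data. Symbols came from the platform annotation, updated through gene identifiers with RefSeq for 7776 probe sets, and 7800 probe sets named 1 gene. Lists used the probe set with the highest mean per gene (7316 genes). Named genes were 12 leading genes per direction, the 4 list members of smallest p, and the nicotinic, nicotine-survival, dopamine and antioxidant genes. The lists, the rule and the members were chosen with earlier results of these data known. Array number limits precision. Deviations from the group means correlated at 0.04, 0.27 and 0.11 between same-numbered arrays of both groups. Between differently numbered arrays the correlations were lower, from -0.19 to 0.03. The main fit did not treat numbers as pairs, and a fit with a replicate block is given below. The planned 3′ to 5′ covariate used 19 pairs of control probe sets, not only of fly mRNAs. One from 3 fly mRNA pairs was added after that result was seen.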

Additional observations from a re-analysis of the deposited data

How the results depend on the processing

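Nicotine against plain food gave 0 calls with all probe sets kept, a stricter filter (log2 6) and values below log2 4 raised to log2 4. It also gave 0 with a robust prior and variance trend, the 6 arrays alone and median centring. Both 3′ to 5′ covariates and 1 probe set per gene gave 0 as well. The covariate from 19 control pairs left 305 probe sets at an unadjusted p below 0.05 and the one from 3 fly mRNAs, chosen after seeing the data, left 84. Array weights gave 20 calls, namely 9 leading probe sets, the other probe set of Hr38 and 10 more, with 1447 at an unadjusted p below 0.05, and the cause was not tested. With a replicate block 0 were called and 241 had an unadjusted p below 0.05. Leaving out each array in turn gave 0 to 2 calls, the 2 without nicotine replicate 2. For nicotine with paraquat, no filter gave 4 calls and leaving out arrays 0 to 32, the 32 without replicate 3 of paraquat with nicotine and 1 without replicate 1, where other settings gave 0. For the difference between both contrasts no filter gave 3 calls and leaving out arrays 0 to 21, with 21 and 1 from the same arrays and 2 without nicotine replicate 2. Where a left-out paraquat array left 1, it was assumed to vary like the other groups. Of the 24 leading genes, 15 were over 1.5 times smaller in at least 1 of 22 settings. With the 19-pair covariate CG5412 was at -0.12, CG11741 at -0.70 and Nplp4 at 0.98, and with array weights CG9018 was at 0.30, CG17490 at -0.31 and l(1)G0196 at -0.34. Their sign held throughout, which choosing genes without overlap largely fixes. Of 42 list medians, 30 changed sign in some setting.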

Other observations

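Averaged over flies without and with paraquat, the nicotine difference called 0 of 9104 probe sets in limma (0%), with 336 at an unadjusted p below 0.05 and a smallest adjusted p of 0.833. Obp99b (-0.87 ± 0.16), the Hr38 probe sets (2.26 ± 0.45 and 1.67 ± 0.41) and Odc2 (1.29 ± 0.29) had the smallest unadjusted p among the named genes. Most named genes were chosen by their p without paraquat, and those arrays are part of this average. The ranking is therefore not independent of that choice. Of the 20 probe sets called with array weights, those outside the leading genes and Hr38 were squ, St3, CG31125, DhpD, Abp1, Sb, CG15877, Gpdh3, Mst57Da and CG7567, named here after their values were seen. CG7567 had 9.81, 8.71 and 9.25 in the nicotine arrays and 4.69, 4.23 and 11.26 in the control arrays, so its weighted difference of 5.06 rests on the low weight of control replicate 3, against 2.53 without weights. The haemocyte list, of 16 genes, had a median of 0.15 with 10 higher and 0 called. Its prophenoloxidase gene PPO1 had 9.02, 9.73 and 10.12 on nicotine and 8.45, 8.76 and 9.21 on plain food, with overlapping arrays.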
